A study of Mus musculus with 2 samples.

Results

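The capped hairpins miR-320 (listed as mmu-mir-320) and miR-484 (mmu-mir-484) and the mirtrons miR-877 (mmu-mir-877), miR-702 (mmu-mir-702), miR-1224 (mmu-mir-1224) and miR-1981 (mmu-mir-1981) are miRNA precursors that reach Dicer without being cut by Drosha. They were found by their precursor names, and all 6 were listed among the 1187 precursors of each library. Counts above 0 were present for 6 of them in the hypercholesterolemic library and for 5 in the normocholesterolemic library. The hypercholesterolemic library (HC) came from hindlimb muscle of ApoE-/- mice, which the series' design text places on a high fat diet, and the normocholesterolemic control library (NC) from hindlimb muscle of C57Bl/6 mice, for which the sources used here state no diet. In both, the femoral artery had been removed surgically and the ischemic muscle was taken on day 1 after surgery. Each group held 1 library, the labels do not give the age or number of the mice, and genotype and diet cannot be told apart. The data therefore hold no spread between animals, no test was run, and the 95% intervals below cover counting error alone. In ischemic muscle, a change in the makeup of cells and a change in RNA per cell cannot be told apart.

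Most miRNAs are transcribed as long primary transcripts from which the nuclear enzyme Drosha, with DGCR8, cuts a hairpin that Dicer then trims to the mature miRNA. A mirtron avoids Drosha because the whole hairpin is a short intron: the spliceosome releases it, debranching opens the lariat, and it folds into a substrate for Dicer. The hairpins of miR-320 and miR-484 avoid it in another way, since RNA polymerase II transcription itself starts at the 5′ end of the hairpin, which carries a cap and is exported to the cytoplasm for Dicer. The level of a mirtron is thus tied to splicing of its host gene, and that of a capped hairpin to its own promoter.

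The position of each hairpin in the GENCODE annotation of the same assembly (GRCm38, that of mm10) served as a check of the mirtron label. The hairpins of miR-1981, miR-877 and miR-1224 coincided at both ends, to the base, with an annotated intron on the same strand. miR-1981 (chr1:184822407-184822488, minus strand) is an intron of 82 bases of Marc2, a gene of a mitochondrial amidoxime-reducing enzyme. miR-877 (chr17:35960730-35960814, minus strand) is an intron of 85 bases of Abcf1, which encodes an ATP-binding cassette protein that acts in translation. miR-1224 (chr16:20604452-20604536, plus strand) is an intron of 85 bases of Vwa5b2. The hairpin of miR-702 (chr5:136991433-136991541, plus strand) did not coincide with its intron, which lies in Plod3, the gene of a collagen lysyl hydroxylase. It began 9 bases upstream, in the preceding exon, and ended 2 bases short of the end of the 102-base intron. Its annotated 5p miRNA, however, starts at base 136991442, which is the first base of the intron.

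The capped hairpins lay in no intron of their own strand. With miRNA genes left out, the annotated transcript start nearest to each was on the opposite strand. Whether transcription starts at the 5′ end of these hairpins was thus not tested. miR-320 (chr14:70443510-70443591, plus strand) overlapped no other annotated gene. It lay 62 bases upstream of the start of Polr3d, a subunit gene of RNA polymerase III that is transcribed in the opposite direction. miR-484 (chr16:14159626-14159692, plus strand) lay within Marf1 but on the opposite strand, and 19 of its bases overlapped an exon of a Marf1 transcript. Use of strand in the counting is not stated in the sources used here, so reads from that Marf1 exon and from miR-484 could not be told apart. No member overlapped another listed precursor. For the 5 members with a RefSeq sequence, no other of the 970 precursors matched to RefSeq had the same mature miRNA.

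**Figure D1:**
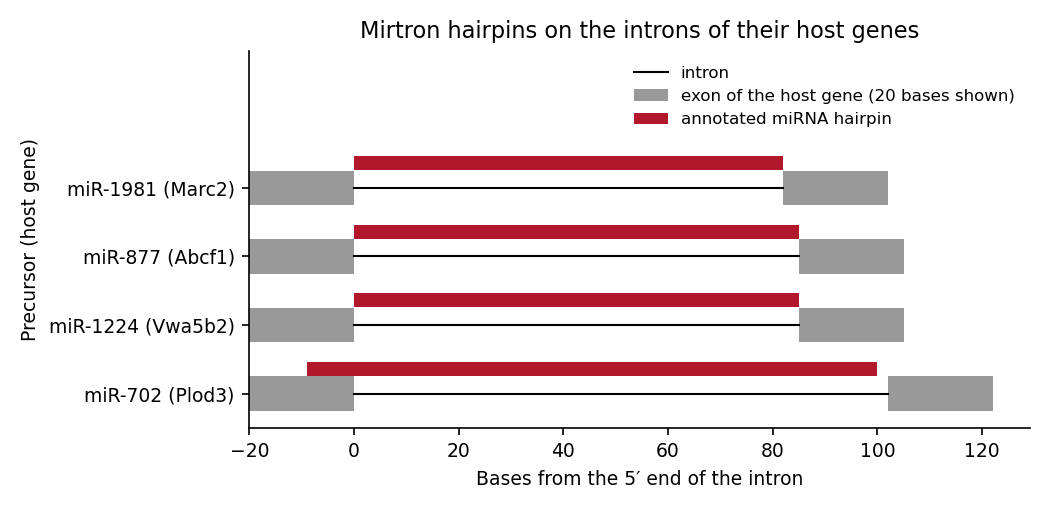
Annotated hairpins (red) of the 4 mirtrons drawn over the introns (black lines) and flanking exons (grey, 20 bases shown) of their host genes, in bases from the 5′ end of the intron. The hairpins of miR-1981, miR-877 and miR-1224 fill introns of 82, 85 and 85 bases, while that of miR-702 starts 9 bases upstream in the exon and ends 2 bases before the intron does.

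The hairpins of the mirtrons with most counts, and that of miR-702 as the exception, are shown because their ends are the splice sites. They are written 5′ to 3′ as RNA from RefSeq (GRCm38.p6), with the first pair of bases of the intron and the last pair, where the hairpin contains them, in capitals:
pre-mir-1981: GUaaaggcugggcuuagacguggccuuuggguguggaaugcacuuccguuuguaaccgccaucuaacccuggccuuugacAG
pre-mir-877: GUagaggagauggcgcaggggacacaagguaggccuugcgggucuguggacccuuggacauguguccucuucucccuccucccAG
pre-mir-702: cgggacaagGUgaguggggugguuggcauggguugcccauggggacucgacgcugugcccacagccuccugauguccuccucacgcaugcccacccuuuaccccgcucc

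The hairpin of miR-484 neither begins with GU nor ends with AG. Its mature miRNA, in capitals, begins at the fifth base, close to the 5′ end of the hairpin:
pre-mir-484: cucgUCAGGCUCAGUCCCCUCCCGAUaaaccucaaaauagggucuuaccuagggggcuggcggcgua

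The mature miRNAs of the members with most counts are given with the seed, bases 2 to 8, in capitals, because the seed sets which mRNAs a miRNA pairs with:
miR-484: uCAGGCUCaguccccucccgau
miR-1981-5p: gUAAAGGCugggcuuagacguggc
miR-1981-3p: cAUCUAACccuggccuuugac
miR-877-5p: gUAGAGGAgauggcgcaggg
miR-877-3p: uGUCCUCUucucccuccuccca

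Each of these seeds, and those of both arms of miR-702 and miR-1224, was unique. None recurred in another of the 1528 mature miRNAs that could be placed on a listed precursor, nor between the members themselves. The members thus form a class by how they are made, not by a shared seed. miR-320 was not included in this comparison. Because the 5p miRNA of a mirtron starts at the 5′ splice site, the 5p seeds of miR-1981, miR-877, miR-702 and miR-1224 all begin with the U of that splice site. The files count both arms of a hairpin together, so the arm from which the reads came was not resolved.

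HC held 31198050 counts over all precursors and NC 43848576. Levels are given as CPM, counts divided by the library size, scaled by the trimmed mean of M-values (TMM), and multiplied by 1e6. A small RNA read spans the mature miRNA, so levels were not divided by hairpin length. The muscle label was checked with marker miRNAs, naming 1 precursor where copies held nearly the same counts. Skeletal muscle markers were counted in both libraries (8 of 9 listed names found, all but miR-486). The largest was miR-133a-1, at 65127 CPM in HC against 65383 in NC. Others lay apart between the libraries, with log2 folds of HC over NC of 0.47 for miR-1a-1, 0.55 for miR-208b and 0.63 for miR-499. The log2 folds of miR-133b and miR-206 were -0.20 and -0.094. Of the smooth muscle markers, miR-143 had 69082 and 76298 CPM and miR-145a 262 and 273, and the endothelial miR-126a had 11407 and 11144. Of the blood cell markers, the erythroid miR-451a (483 and 386 CPM) and miR-144 (125 and 81.8) were above their NC level in HC. The myeloid miR-223 (340 and 251) was also above its NC level, while the lymphocyte miR-150 (142 and 238) was below it (2 of 3 leukocyte names found). The leukocyte miR-142a was not among the names found, but it was listed and counted in both libraries. Its level lay above that of miR-223 in each library and did not differ between the libraries beyond counting error. The 7 epithelial markers summed to 139 CPM in HC and 188 in NC, and the hepatic miR-122 had 0.214 and 0.215. Of the neuronal markers (6 of 7 listed names found), miR-9-1 had 4.96 and 8.29 CPM and miR-124-1 had 0.673 and 0.812. No marker found was at 0 in both libraries. The part of these marker differences in the results below was not tested.

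The 6 members were minor miRNAs of ischemic muscle. Together they had 5753 counts in HC and 6967 in NC, which is 0.0184% of the precursor counts in HC (exact Clopper-Pearson interval 0.0180 to 0.0189%) and 0.0159% in NC (0.0155 to 0.0163%). Their levels spanned orders of magnitude and followed the same order in both libraries. The capped hairpins stood at the top, miR-1981 came next, miR-877 after it, and miR-702 and miR-1224 lay at the limit of detection.

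miR-484 had 2718 counts in HC and 3670 in NC, or 83.2 CPM (exact Poisson interval 80.1 to 86.3) and 87.7 CPM (84.9 to 90.6). In HC 134 precursors had more counts, and in NC 132 did. miR-320 had 2683 counts in HC and 2873 in NC, or 82.1 CPM (79.0 to 85.3) and 68.6 CPM (66.2 to 71.2), with 135 and 139 precursors above it. The pair thus had levels in HC that did not differ beyond counting error, while in NC miR-320 was below miR-484.

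miR-1981 was the most abundant mirtron among the members, with 295 counts in HC and 351 in NC. That is 9.03 CPM (8.03 to 10.1) in HC and 8.39 CPM (7.53 to 9.31) in NC. miR-877 had 51 and 68 counts, or 1.56 CPM (1.16 to 2.05) and 1.62 CPM (1.26 to 2.06). In each library these values were separated from one another and from the capped hairpins by more than their counting intervals.

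miR-702 had 4 counts in HC and 5 in NC, at 0.122 and 0.119 CPM. miR-1224 had 2 counts in HC and 0 in NC. For a count of 0 a fixed limit of 3 counts was used, or 0.0717 CPM in NC. The exact Poisson interval of miR-1224 in NC reaches 0.0881 CPM. These last members did not differ from each other beyond counting error in HC, and both libraries are too shallow to show a difference in either. No fold was formed for miR-1224, since neither library exceeded 3 counts.

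**Figure D2:**
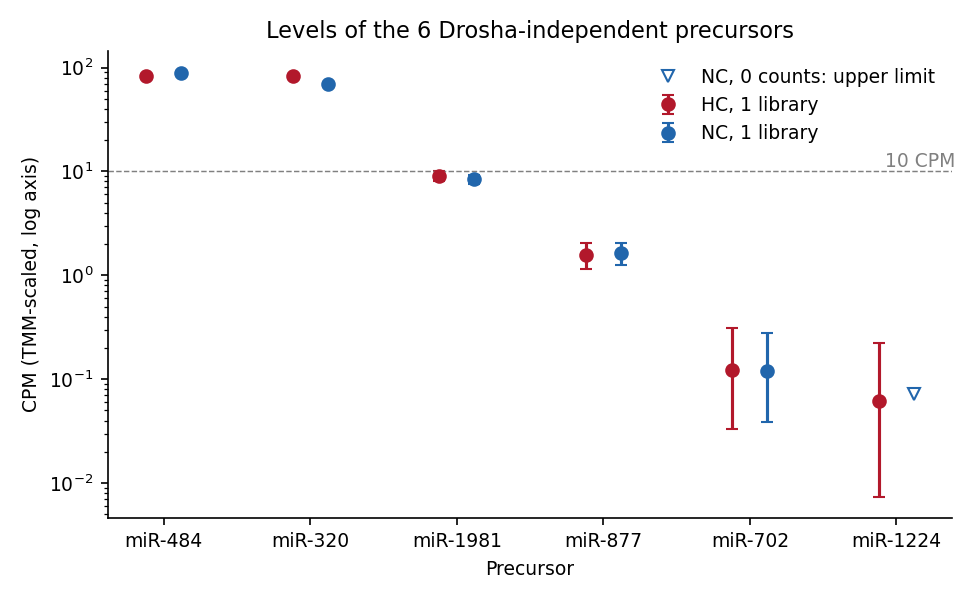
Level of each member in CPM (log axis) in the HC library (red) and the NC library (blue). Bars are exact 95% Poisson intervals of counting error. For the count of 0 of miR-1224 in NC, the open triangle marks the fixed limit of 3 counts. The capped hairpins lie between 68.6 and 87.7 CPM, miR-1981 just under the dashed line at 10 CPM, and miR-702 and miR-1224 near 0.1 CPM.

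The comparison of the libraries asks how hypercholesterolemia bears on the miRNAs of ischemic muscle. miR-320 was 1.20-fold higher in HC (interval 1.13 to 1.26), a log2 fold of 0.26 (0.18 to 0.33). miR-484 lay at a log2 fold of -0.076 (-0.15 to -0.0044). Neither reached 1.5-fold, the size used here for a call. The minimum level for this comparison was a mean of 10 CPM, which 222 precursors reached. Of these, 7.21% were at least 1.5-fold apart with an interval clear of equality (2.7% with HC above NC and 4.5% with HC below NC), and 2.25% at least 2-fold apart. At this depth most abundant miRNAs have an interval that excludes equality, as did 83.3% of the 222 (39.6% with HC above NC, 43.7% with HC below NC). An interval that excludes equality therefore sets neither miR-320 nor miR-484 apart. The fold of miR-320 was above that of 85.1% of the compared precursors and the fold of miR-484 above that of 39.2%. Both lay inside the range from -0.47 to 0.47 that held the central 90%.

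The direction of miR-320 was the same under each scaling of the libraries, with log2 folds from 0.050 to 0.39, but the lowest of these did not exclude equality. That value, 0.050 (-0.027 to 0.13), came from scaling by all listed counts, those outside the precursors included. miR-484 had no firm direction: its log2 fold was 0.058 (-0.014 to 0.13) with plain totals and -0.28 (-0.36 to -0.21) with all listed counts.

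**Figure D3:**
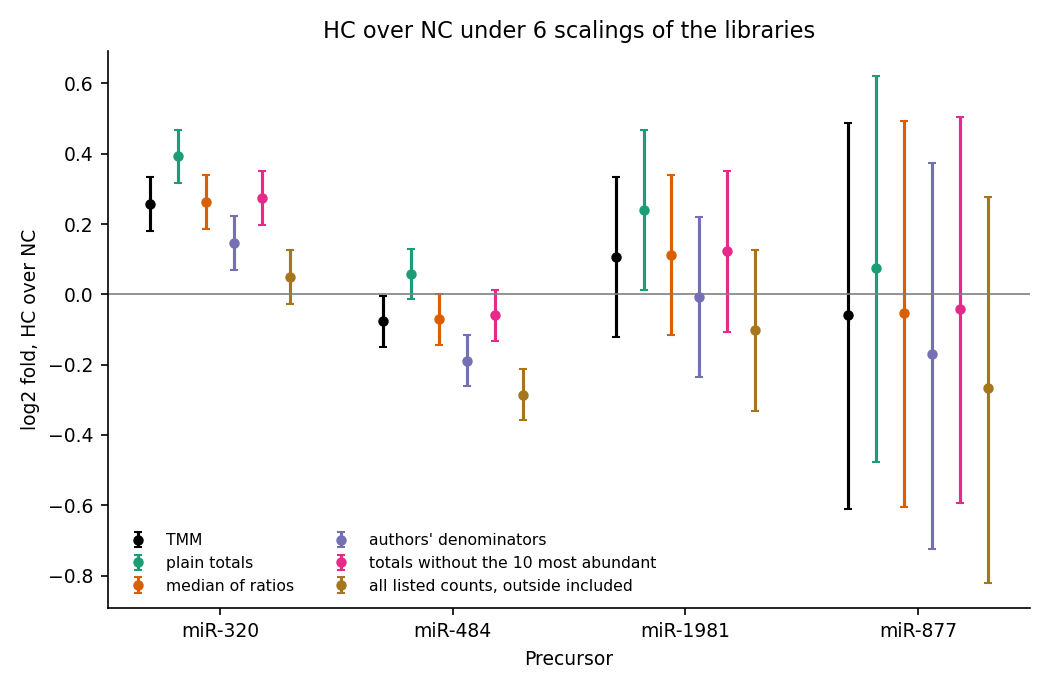
log2 fold of HC over NC for the 4 members with a mean of at least 1 CPM, under TMM scaling (black) and 5 other scalings (colours), with exact 95% counting intervals. The values of miR-320 lie above 0 in all scalings, with the interval of 1 of them reaching 0, those of miR-484 lie on both sides, and the intervals of miR-877 include 0 throughout.

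The balance between the capped hairpins does not depend on any scaling, because it is taken within a library. miR-320 made up 49.7% (48.3 to 51.0%) of the counts of the pair in HC and 43.9% (42.7 to 45.1%) in NC. The ratio of miR-320 to miR-484 was 0.987 in HC and 0.783 in NC, a ratio of ratios of 1.26 (exact conditional interval 1.17 to 1.36). The ratio thus differed between these libraries beyond counting error, and with 1 library per group it could not be set against the spread between animals.

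The mirtrons gave no difference detectable at this depth. miR-1981, at a mean of 8.71 CPM just below the minimum of 10 CPM, had a log2 fold of 0.11 (-0.12 to 0.33), and only plain totals gave an interval above 0 (0.24, 0.012 to 0.47). miR-877 had a log2 fold of -0.058 (-0.61 to 0.49) and miR-702 one of 0.035 (-2.30 to 2.25). Under TMM, the interval of miR-1981 allows HC to be up to 1.26-fold higher or 1.09-fold lower than NC. That of miR-877 allows up to 1.40-fold higher or 1.53-fold lower, which includes the size of a call. The bounds move with the scaling: with all listed counts the log2 fold of miR-1981 was -0.10 (-0.33 to 0.13). Lowering the minimum to 1 CPM brought 335 precursors and 4 members into the comparison. No member was 1.5-fold apart there either, where 10.4% of all 335 were. The median log2 fold of these 4 members was 0.024, beside -0.0052 for the 335.

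The proportion of mirtron to capped hairpin counts was close in both libraries. The 4 mirtrons had 352 of the 5753 member counts in HC, 6.12% (5.51 to 6.77%), and 424 of 6967 in NC, 6.09% (5.54 to 6.67%). The ratio of ratios was 1.01 (0.867 to 1.17). Among the mirtrons, miR-1981 supplied 83.8% (79.5 to 87.5%) of the counts in HC and 82.8% (78.8 to 86.3%) in NC, and miR-877 supplied 14.5% and 16.0%. The ratio of miR-1981 to miR-877 was 5.78 in HC and 5.16 in NC, with a ratio of ratios of 1.12 (0.742 to 1.70).

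The precursors nearest in level to the capped hairpins were found by the distance between log2 CPM values over the 2 libraries, among 187 candidates with 1 precursor per set of copies. For miR-320 they were miR-365-2, at 79.4 CPM in HC and 75.3 in NC (distance 0.14), and miR-361, at 66.9 and 65.0 CPM (distance 0.31). For miR-484 they were miR-301a, at 89.1 and 93.1 CPM (distance 0.13), and miR-19b-2, at 80.6 and 96.8 CPM (distance 0.15). Over 2 libraries this measures level and fold only.

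To place the members among other mirtrons, every precursor was sorted by the annotation alone. Both ends lay within 10 bases of the ends of an annotated intron for 27 precursors, the intron-flush class, of which 20 coincided to the base. The class held the 4 mirtrons and 23 others, 18 of them numbered from miR-6896 to miR-7093. It was a scarce class: 10 of the 27 had no count in either library, and 11 had between 1 and 11 counts in all. Only 1 of the 27 (3.70%) reached a mean of 10 CPM, against 18.7% of all 1187 precursors and 23.7% of the 451 lying deeper inside introns. The 229 precursors flush with an intron at 1 end were scarcer still, with 0.437% at that level. The class summed to 947 counts in HC and 1381 in NC. The 4 mirtrons supplied 37.2% (34.1 to 40.3%) of these in HC and 30.7% (28.3 to 33.2%) in NC.

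The 4 most abundant intron-flush precursors besides the members were miR-7068, miR-3102, miR-6944 and miR-1982. miR-7068, an intron of Cherp, was the most abundant of the class, with 335 counts in HC and 594 in NC and a log2 fold of -0.47 (-0.67 to -0.27). miR-6944, an intron of the drebrin gene Dbn1, had 41 and 97 counts and a log2 fold of -0.89 (-1.45 to -0.34), the only intron-flush precursor 1.5-fold apart at a minimum of 1 CPM. miR-3102, an intron of Arhgef17, lay at 0.13 (-0.16 to 0.42) with 185 and 216 counts. miR-1982, an intron of the antizyme gene Oaz1, had 14 and 27 counts and lay at -0.59 (-1.64 to 0.39). The intervals of miR-7068 and miR-6944 lay below 0, while those of miR-3102, miR-1982, miR-1981 and miR-877 included 0.

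**Figure D4:**
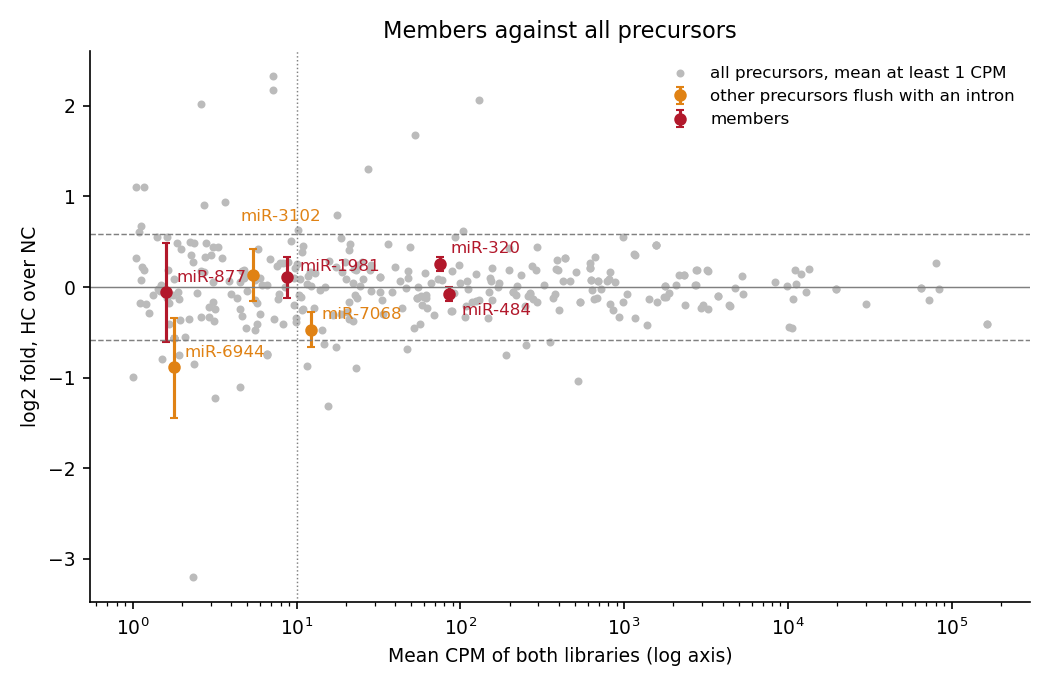
log2 fold of HC over NC against the mean CPM of both libraries (log axis) for 335 precursors at or above a mean of 1 CPM (grey), with the members in red and other intron-flush precursors in orange, each with its exact 95% counting interval. Dashed lines mark 1.5-fold and the dotted line 10 CPM, and the 4 members lie within the dashed lines while miR-6944 lies below.

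The ends of the hairpins were compared with the letters found at splice sites. Of the 970 precursors with a RefSeq hairpin, 30 (3.09%) begin with GU and end with AG, on the strand of the hairpin. Of these, 15 were among the 23 intron-flush hairpins with a sequence and 15 among the 947 others. The hairpins of miR-1981, miR-877 and miR-1224 have both ends, as their position on an intron implies, and that of miR-702 has neither. The matches are a description. The 3′ end of an intron also holds a run of pyrimidines ahead of the AG. C and U made up 90.0% of the last 20 bases of the miR-877 hairpin, a share reached by 0.722% of all 970 hairpins. The share was 85.0% in miR-1224 and miR-702, reached by 2.68%. The hairpin of miR-702 ends 2 bases before its intron does, so its 20 bases leave out the AG of the intron. miR-1981 had 60.0%, near the median of 55.0% over all hairpins, and the capped miR-484 had 40.0%. Over the 23 intron-flush hairpins the median was 75.0% and the lowest value 60.0%. The most abundant of the 4 mirtrons thus had the least pyrimidine-rich hairpin 3′ end, although 4 hairpins allow no statement on a relation.

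GC content was 53.7% in miR-1981, 58.2% in miR-484, 60.0% in miR-1224, 61.2% in miR-877 and 65.1% in miR-702, against a median of 51.7% over all hairpins and 60.5% over the intron-flush hairpins. Predicted folding energy per base was -0.37 kcal/mol in miR-484 and miR-1981, weaker than the median of -0.41, -0.43 in miR-877 and miR-702, and -0.50 in miR-1224. Of the members with a sequence, those with most counts, miR-484 and miR-1981, thus had the least stable predicted hairpins per base, although 5 hairpins allow no statement on a relation.

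**Figure D5:**
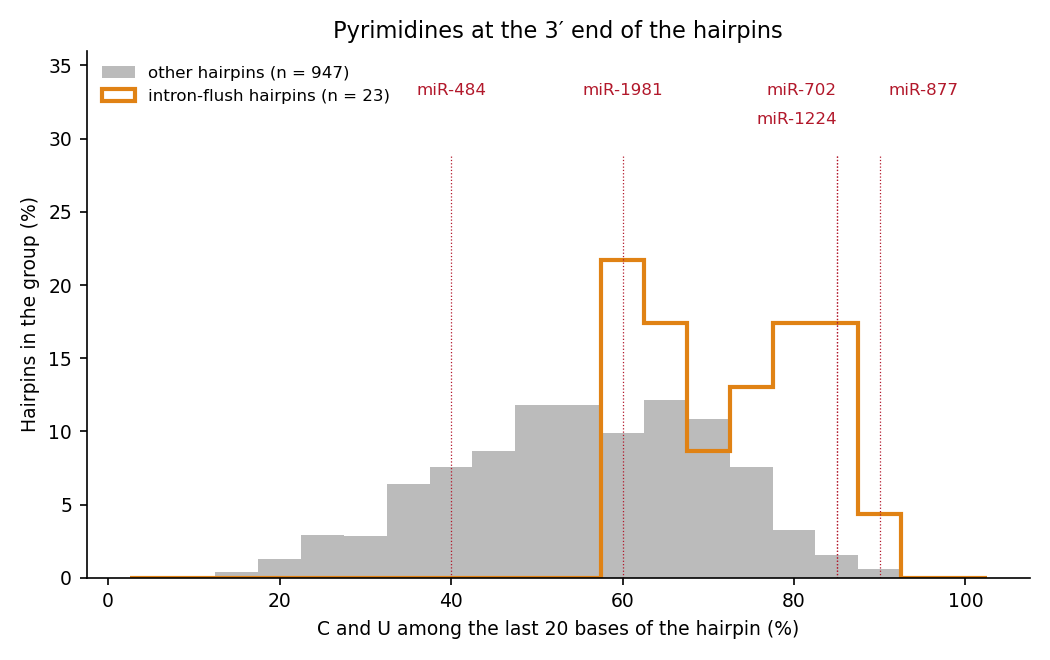
Share of C and U among the last 20 bases of the hairpin (x axis, percent) in 23 intron-flush hairpins (orange outline) and 947 other hairpins (grey), as percent of each group. Dotted lines mark the 5 members with a RefSeq sequence: miR-484 at 40.0%, miR-1981 at 60.0%, miR-1224 and miR-702 at 85.0% and miR-877 at 90.0%.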

How the data were processed

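The 2 small RNA libraries were prepared with the TruSeq small RNA kit after Trizol and mirVana extraction, per the labels' protocols. The deposited counts are whole reads per precursor. Tools named in the submitters' processing notes are HTSeq 0.5.4, TopHat2 2.0.10 and CASAVA 1.8.2, with the build mm10. Their roles, the trimming and the handling of multiply mapped reads are not stated there. The authors also deposited a signal column headed RPM, the count over a constant denominator, which was used for an alternative scaling only. Of 5 deposited summary rows, the counts outside the precursors (55.9% of listed counts in HC, 44.1% in NC) stayed out of library sizes.

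TMM factors came from edgeR 4.0.16 (R 4.3.3), with no edgeR test. Folds carry exact conditional binomial intervals and levels exact Poisson intervals (SciPy 1.17.1). Reads are not independent molecules, so these cover counting error only. A call required a mean of at least 10 CPM, a fold of at least 1.5 and an interval excluding equality. Intron classes came from GENCODE mouse release M21, hairpins and mature miRNAs from RefSeq (GRCm38.p6, 970 precursors and 5 members matched by coordinates), and folding energies from RNAfold 2.7.2. The procedure was checked on simulated Poisson counts, which hold counting error alone and no spread between animals. Named miRNAs were all members, 2 neighbours in level per compared member, the 4 most abundant other intron-flush precursors (none passed the call), any sharing a seed, and miR-1982. Members, lists and rules were chosen with earlier results of these data known.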

Additional observations from a re-analysis of the deposited data

Results flagged for a closer look

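Counts outside all precursors, which were left out of the library sizes except in an alternative scaling, were 55.9% of the listed counts of HC, above the 44.1% of the control library. Counted against all listed counts, miR-320 lay at a log2 fold of 0.050 and miR-484 at -0.28. The part of these outside counts in the folds of the members was not tested.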

How the results depend on the processing

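The scalings shift every log2 fold by the same amount: 0.13 for plain totals, -0.11 for the authors' denominators, -0.21 for all listed counts (chosen after seeing the data), 0.0052 for the median of ratios and 0.017 for totals less the 10 most abundant precursors. The log2 fold of miR-320 became 0.39 (plain totals), 0.15 (authors' denominators) and 0.050 (all listed counts). That of miR-484 turned to 0.058 (plain totals) and became -0.19 (authors' denominators) and -0.28 (all listed counts). Of 25 alternative values of member folds, 19 stayed within the counting interval. No member was 1.5-fold apart under any scaling or filter run. Without a filter, miR-1224 still had no fold, and miR-702, at 4 and 5 counts, had an interval from -2.30 to 2.25 under TMM. Of the 222 precursors compared, 16 were 1.5-fold apart, against 25 of 224 with all listed counts, 35 of 335 with a minimum of 1 CPM, 7 of 155 with a minimum of 50 CPM and 57 of all 1187 without any filter. Among all 1187, 432 had no count in either library and could not be called. For the 222 precursors, plain totals changed the split from 6 higher and 10 lower to 14 higher and 5 lower. The intron-flush class held 27 precursors, 21 with a tolerance of 5 bases, where miR-702 left it, and 45 with 20 bases. Within-library shares and ratios need no scaling. No paired analysis was possible because each group held 1 library, and for the same reason no replicate could be left out. Depth limits miR-877, miR-702 and miR-1224.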
